A study of Homo sapiens with 36 samples.

Results

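The genes described here act in homologous recombination and in the DNA damage response around it. They were chosen by name: 35 genes were listed, and 31 of them had a probe with a single gene symbol, out of 17958 genes measured in the series. BRCA2, FANCA, FANCD2 and RBBP8 had no such probe in the annotation used and were not analysed here. No threshold on these values set the list, but it was drawn up with earlier results of the series known. Each of the 31 genes had 1 single-gene probe. A second probe shared by FANCI and other genes was not used.

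Expression was measured on 36 Affymetrix arrays from the triple-negative breast cancer lines MDA231, SUM159PT and BT549, in 4 groups of 3 arrays per line, lettered A, B and C. All cells were reverse transfected with 10 nM of a siRNA pool and harvested 96 h later. The siCONTROL group received a non-targeting pool and DMSO, and the siDUSP4 group a pool against DUSP4, which encodes a nuclear phosphatase of MAP kinases, and DMSO. The other 2 groups received the non-targeting pool and 1 uM selumetinib (AZD6244), which blocks the MAP kinase kinases MEK1/2, for the last 4 h or 24 h. Each line stands for 1 tumour. Nothing in the labels ties the letters to separate cultures. The p-values therefore reflect array-to-array spread within a group, and that spread may be technical. The comparisons ask how these genes change when DUSP4 is depleted and when MEK is inhibited.

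Homologous recombination repairs a broken chromosome by copying the sister chromatid, which exists only after replication, and many of its genes are expressed most in late G1 and S phase. Nucleases resect the broken end, BRCA1 and its partners promote strand invasion of the sister chromatid, and the BLM complex or nucleases resolve the joint molecules. The Fanconi anaemia proteins unhook cross-links and pass the break to recombination, while ATM and ATR with their effector kinases CHEK2 and CHEK1 halt the cell cycle. Loss of BRCA1 or BRCA2 function in breast cancer makes cells sensitive to PARP inhibitors and platinum.

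The deposited values are log2 signals, and the upper quartile of an array ran from 7.48 to 8.03. MDA231 4 h array B (7.48), BT549 24 h array A (7.50) and MDA231 4 h array C (7.67) were the dimmest by this measure. The titles of 24 arrays name SUM159PT where other labels name BT549, and the reverse. The titles were followed. RB1, which BT549 is known to have lost, read 6.83 in the siCONTROL arrays titled BT549, 9.40 in SUM159PT and 10.31 in MDA231, and CDKN2A read 9.82, 4.12 and 4.23. Had the other labels been followed, the values given here for BT549 would be those of SUM159PT and the reverse. DUSP4 signal fell to 18.7% of siCONTROL in MDA231, 27.9% in SUM159PT and 21.1% in BT549 with its siRNA, and DUSP6, an ERK target, fell to 4.33%, 13.3% and 32.9% after 4 h of selumetinib. DUSP4 is itself induced by ERK, and selumetinib also lowered it, to 19.6% after 4 h and 41.8% after 24 h in MDA231. ETV4, ETV5 and SPRY4, other ERK targets, fell in MDA231 and SUM159PT after 24 h. In BT549 SPRY4 fell after 24 h by 0.93, while ETV4 (-0.41, adjusted p = 0.139) and ETV5 (-0.26, adjusted p = 0.261) did not pass the test. With siDUSP4 DUSP6 did not pass it in any line (-0.22 in MDA231, 0.04 in SUM159PT, -0.06 in BT549). ETV4 (-0.82, adjusted p = 0.00233 by limma) and SPRY4 (-0.78, adjusted p = 0.00932) fell with siDUSP4 in MDA231, and ETV5 (-0.38) did not pass. In the other lines none of these 3 passed with siDUSP4, and SPRY4 in BT549 changed by 0.61 (adjusted p = 0.0531). All 3 mesenchymal markers (VIM, FN1, CD44) lay above the median probe signal of 5.27 in each line, as did 1 of 3 receptor genes, ERBB2. ESR1 and PGR lay below it. Of 9 measured markers of blood and vessel cells, 3 lay above it in MDA231, 4 in SUM159PT and 1 in BT549. Of 5 epithelial markers, 4, 3 and 2 lay above it in MDA231, SUM159PT and BT549.

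With siDUSP4 more repair genes were called higher than lower, mainly in BT549, and those called with selumetinib were lower. Few genes had both calls in the same line. XRCC2 and RAD54B in MDA231 and FANCM in BT549 rose with siDUSP4 and fell after 24 h of selumetinib. FANCE and RMI2 in MDA231 and RAD50 in BT549 fell in both comparisons. With siDUSP4, 14 of 31 genes rose and 2 fell in BT549, where 4.97% of all genes rose and 9.22% fell. In MDA231 5 rose and 4 fell, where 7.86% of all genes rose and 9.77% fell, and XRCC2, a core recombination gene, rose in both lines. With selumetinib for 24 h, 19 genes fell in MDA231, 5 in SUM159PT and 8 in BT549, where 10.3%, 2.94% and 12.4% of all genes fell. BLM, the helicase that unwinds joint molecules, fell to 46.5% of its control level in MDA231. After 4 h FANCF was called lower in MDA231 and NBN in SUM159PT, where 14.5% and 3.81% of all genes fell. A gene was called, here and below, at a Benjamini-Hochberg adjusted p under 0.05 from limma over all 17958 genes. Both agents were compared with the same siCONTROL arrays, so their changes are not independent of each other.

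**Figure D1:**
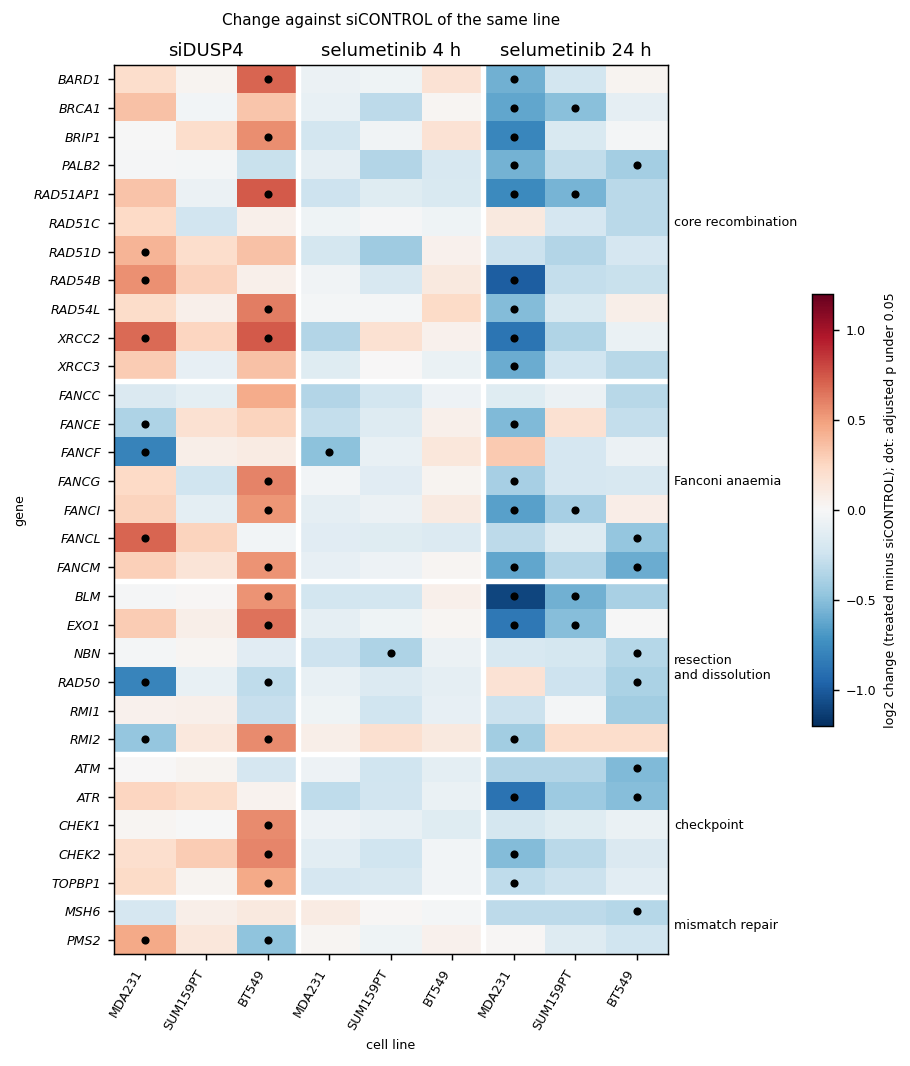
Log2 change against siCONTROL of the same line for the 31 repair genes (rows, grouped by role) in the 9 comparisons (columns); red is higher, blue is lower, and a dot marks an adjusted p under 0.05. Dots on red are in the siDUSP4 columns of BT549 (14) and MDA231 (5), and the 24 h columns hold dots on blue only, 19 in MDA231, 5 in SUM159PT and 8 in BT549.

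The lines already differed in these genes before any treatment. In siCONTROL 29 of 31 genes differed between lines by an F test, where 62.7% of all genes did. The exceptions were ATM (adjusted p = 0.0588) and TOPBP1 (adjusted p = 0.185). SUM159PT had the lowest mean for 19 of 31 genes, and for 15 of these all of its arrays lay below those of both other lines. Over all genes, SUM159PT was lowest for 32.5%, and the share with all of its arrays below was not counted. MDA231 and BT549 each had the highest mean for 14 genes and SUM159PT for 3. Over all genes, MDA231 was highest for 30%, BT549 for 38.1% and SUM159PT for 31.9%. The siCONTROL arrays of SUM159PT had medians of 5.29 to 5.37 and upper quartiles of 7.90 to 7.95, and those of BT549 medians of 5.16 to 5.21 and upper quartiles of 7.99 to 8.03. The part of array brightness in the line order was not tested.

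FANCF, a subunit of the Fanconi core complex, showed the widest spread between lines. Its siCONTROL arrays read 6.75, 6.83 and 6.77 in SUM159PT, 6.12, 5.74 and 5.88 in MDA231, and 4.31, 4.54 and 4.79 in BT549, so the lines did not overlap. The BT549 values lay below the median probe signal of 5.27. PMS2, a subunit of the mismatch repair endonuclease, had the next widest spread, in another order. It read 9.81, 10.25 and 10.20 in BT549, 9.50, 9.59 and 9.51 in SUM159PT and 8.23, 8.11 and 8.23 in MDA231. EXO1, a nuclease of end resection, was high in MDA231 (8.94 ± 0.072, SD, n = 3) and BT549 (8.80 ± 0.055) and low in SUM159PT (7.38 ± 0.075). RAD54B, a DNA translocase of recombination, had the same low line, with means of 7.35 in BT549, 7.22 in MDA231 and 5.91 in SUM159PT. For RAD54B the arrays of BT549 and MDA231 overlapped. SUM159PT was the highest line for FANCF, RAD51C and CHEK2. The checkpoint kinase gene CHEK2 read 7.64, 7.83 and 7.72 there against 6.83 to 7.12 in BT549 and 6.15 to 6.42 in MDA231. BRCA1 was highest in BT549 (8.30 ± 0.12), and its MDA231 (7.16 ± 0.18) and SUM159PT (6.99 ± 0.13) arrays overlapped. BRIP1, a helicase partner of BRCA1, was highest in MDA231 at 8.67 ± 0.050, with SUM159PT (7.34) and BT549 (7.27) overlapping. Levels of different genes come from different probes and are not compared.

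**Figure D2:**
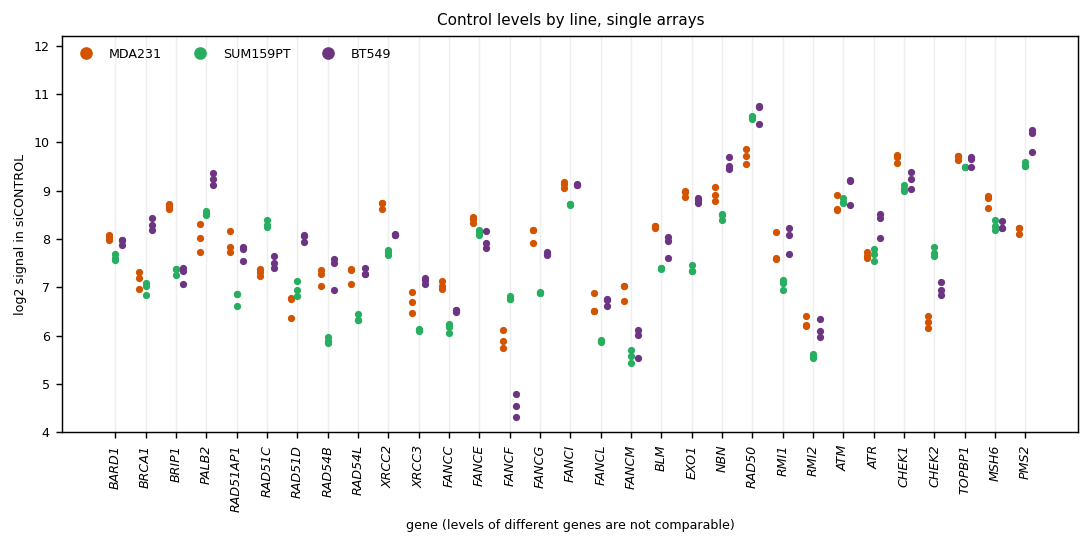
Log2 signal of each siCONTROL array (y axis) for the 31 repair genes (x axis), with 3 points per line. SUM159PT has the lowest mean for 19 genes, and it is lowest for 32.5% of all genes. All of its points lie below those of both other lines for 15, a count not made over all genes. FANCF shows the widest gap, from 6.83 at the top in SUM159PT to 4.31 at the bottom in BT549. Its BT549 points lie below the median probe signal of 5.27.

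DUSP4 depletion raised recombination, Fanconi and checkpoint genes together in BT549. The median change was 0.35 log2 units for the repair genes and 0.01 for all genes. For 19 genes every siDUSP4 array lay above every control array, as did 18.8% of all genes. In the same comparison 2 of 5 epithelial markers fell, with a summed log2 signal of 31.1 to 32 in control and 29.96 to 30.35 in treated arrays. Of the 3 mesenchymal markers 1 fell, with sums of 34.2 to 34.3 in control and 33.2 to 33.4 in treated arrays, and 1 of 3 receptor genes fell. The part of these shifts was not tested. In MDA231 the count of 4 falls was near the background. The median change of the repair genes there was 0.22, and 14 genes had all arrays above the controls, against 17.5% of all genes. In SUM159PT limma called none, with 3 of 31 genes at an unadjusted p under 0.05, where 1.05% of all genes rose and 1.78% fell. 6 genes in SUM159PT had all arrays above the controls, against 12.4% of all genes.

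As the mean of the 3 lines 16 repair genes rose and 1 fell with siDUSP4, where 7.43% of all genes rose and 11.3% fell. Without the arrays lettered C the number called in that mean was 4 instead of 17. Repeating the quantile normalization gave 12 rises and 4 falls in MDA231 in place of 5 and 4.

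Of the 11 measured core recombination genes, 5 rose in BT549 and 3 in MDA231, and none fell in either line. XRCC2 was the member called in both lines. Its control arrays read 8.08, 8.11 and 8.09 in BT549 and its siDUSP4 arrays 8.96, 8.76 and 8.76. In MDA231 they read 8.75, 8.75 and 8.63 against 9.24, 9.44 and 9.48. All treated arrays lay above all controls in these lines, and also in SUM159PT, where the change of 0.26 was not called. XRCC2 rose by 0.74 (SE 0.16, adjusted p = 0.00112) in BT549, to 167% of control, and by 0.68 (SE 0.16, adjusted p = 0.00181) in MDA231.

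BARD1, which forms a ubiquitin ligase with BRCA1, rose in BT549 from 7.87, 7.97 and 7.97 to 8.72, 8.65 and 8.54. The groups were far apart there, with a change of 0.70 (SE 0.11, adjusted p = 3.67e-05), while in MDA231 (0.21) and SUM159PT (0.04) the arrays overlapped. RAD54L, a DNA translocase of recombination, read 7.41, 7.27 and 7.27 in BT549 controls and 7.90, 7.93 and 7.95 with siDUSP4. It rose by 0.61 (SE 0.12, adjusted p = 0.000422), and its changes of 0.22 in MDA231 and 0.06 in SUM159PT were not called. In MDA231 all its treated arrays still lay above the controls. RAD51AP1, which stimulates strand invasion, rose by 0.74 in BT549 and BRIP1 by 0.56. RAD54B, in contrast, rose in MDA231 by 0.55 (adjusted p = 0.00338), with a change of 0.06 in BT549. RAD51D, which acts in a complex with XRCC2, rose by 0.41 (SE 0.14, adjusted p = 0.0413) in MDA231, where the arrays overlapped: 6.36, 6.77 and 6.77 in controls and 6.77, 7.06 and 7.30 with siDUSP4. That call did not hold without MDA231 siCONTROL array A (0.27), siDUSP4 array B (0.40) or siDUSP4 array C (0.28). It was also lost with the array medians aligned and in the fit on MDA231 alone. BRCA1 itself was not called in a single line, at 0.35 in MDA231 (adjusted p = 0.0505) and 0.33 in BT549 (adjusted p = 0.0814), with all treated arrays above the controls in both. In the mean of the lines BRCA1 rose by 0.22 (adjusted p = 0.0345), a call lost without the arrays lettered A (0.14) or C (0.17), and the value was 0.34 without B. PALB2, which links BRCA1 to BRCA2, RAD51C and XRCC3 were not called in any line, with changes from -0.27 to 0.35.

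**Figure D3:**
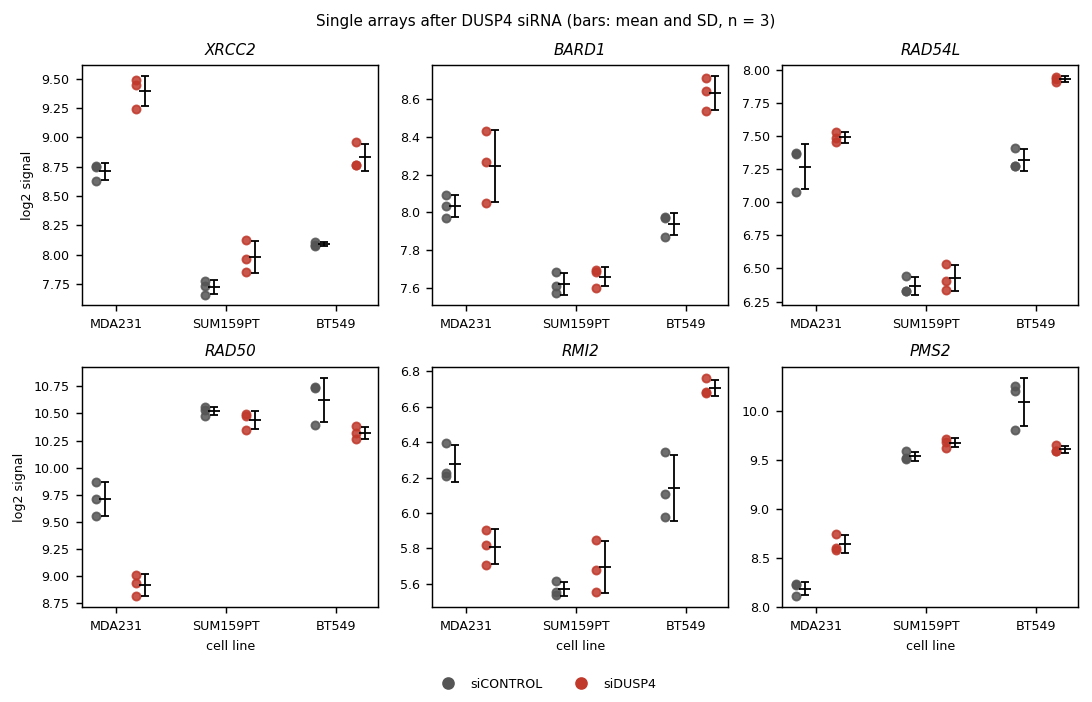
Log2 signal of single arrays (y axis) in siCONTROL (grey) and siDUSP4 (red) for 6 repair genes in the 3 lines (x axis); the bar beside each group is the mean with SD, n = 3. The red points of XRCC2 lie above the grey ones in all 3 lines. BARD1 separates in BT549, and RAD54L in BT549 and MDA231. RMI2 and PMS2 move in opposite directions in MDA231 and BT549.

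Fanconi anaemia genes were split between the lines. FANCG, a core complex subunit, rose in BT549 by 0.60 and FANCI, the partner of FANCD2 in the clamp that marks cross-links, by 0.53 (SE 0.099, adjusted p = 0.000275). FANCI arrays read 9.15, 9.12 and 9.11 in BT549 controls and 9.71, 9.68 and 9.58 with siDUSP4, well separated. In MDA231 its change of 0.27 was not called (adjusted p = 0.0558). FANCM, the translocase that brings the core complex to DNA, went from 5.54, 6.02 and 6.12 to 6.44, 6.50 and 6.36 in BT549. It rose by 0.54 (SE 0.13, adjusted p = 0.00429), and the call did not hold without BT549 siCONTROL array A, the lowest control (0.36, adjusted p = 0.0653). FANCL, the ubiquitin ligase subunit, rose in MDA231 by 0.70 (adjusted p = 0.000333), where FANCF fell by 0.80 (SE 0.14, adjusted p = 8e-05) and FANCE by 0.37 (adjusted p = 0.0411). FANCF arrays in MDA231 read 6.12, 5.74 and 5.88 in controls and 5.02, 5.14 and 5.19 with siDUSP4. The treated values lay below the median probe signal of 5.27. The FANCE call did not hold when any 1 of the 6 arrays was left out, nor in the fit on MDA231 alone. Its changes ran from -0.42 to -0.29 over all alternatives. FANCC was not called in any line and changed by 0.44 in BT549 (adjusted p = 0.0782).

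Genes of end resection and of joint-molecule dissolution moved both ways. EXO1 rose in BT549 from 8.85, 8.81 and 8.75 to 9.55, 9.48 and 9.35, a change of 0.65 (SE 0.15, adjusted p = 0.00235). Its change in MDA231 was 0.30 and was not called, although all treated arrays lay above the controls. BLM rose in BT549 by 0.54 (adjusted p = 0.0124), with changes of -0.01 in MDA231 and 0.01 in SUM159PT. The BLM call did not hold without BT549 siCONTROL array A (0.41), siDUSP4 array A (0.51) or siDUSP4 array B (0.50). RAD50, the coiled-coil subunit of the MRE11 complex that tethers DNA ends, was the member that fell in more than 1 line. In MDA231 its arrays read 9.86, 9.72 and 9.55 in controls and 9.01, 8.81 and 8.94 with siDUSP4. RAD50 fell there by 0.79 (SE 0.094, adjusted p = 1.67e-07), to 57.8% of control, and in BT549 by 0.30 (SE 0.094, adjusted p = 0.0269). The BT549 fall was not called without siCONTROL array B (-0.24) or C (-0.25) or siDUSP4 array A (-0.30) or C (-0.27). Nor was it called in the fit on BT549 alone. NBN, another subunit of that complex, and RMI1 were not called in any line, with changes from -0.28 to 0.06.

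RMI2 and PMS2 were called in opposite directions in MDA231 and BT549. RMI2, a subunit of the BLM dissolution complex, read 6.40, 6.23 and 6.21 in MDA231 controls and 5.82, 5.71 and 5.90 with siDUSP4. In BT549 it read 6.34, 6.11 and 5.98 against 6.76, 6.68 and 6.68. It fell by 0.47 in MDA231 (adjusted p = 0.00605) and rose by 0.56 in BT549 (adjusted p = 0.00143), with no overlap in either line. PMS2 went the other way, from 8.23, 8.11 and 8.23 to 8.61, 8.58 and 8.75 in MDA231 and from 9.81, 10.25 and 10.20 to 9.59, 9.65 and 9.59 in BT549. It rose by 0.46 in MDA231 (adjusted p = 0.00105) and fell by 0.48 in BT549 (adjusted p = 0.000882). MSH6, the mismatch recognition subunit, was not called.

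Of the 5 checkpoint genes CHEK1, CHEK2 and TOPBP1 rose in BT549. CHEK2 read 7.12, 6.83 and 6.94 in BT549 controls and 7.76, 7.42 and 7.47 with siDUSP4. It rose by 0.59 (SE 0.15, adjusted p = 0.00489), and the call was lost without siDUSP4 array A (0.48, adjusted p = 0.0517). TOPBP1, the activator of ATR, went from 9.49, 9.69 and 9.66 to 10.06, 10.10 and 10.06, a rise of 0.46 (SE 0.096, adjusted p = 0.000989). CHEK1 rose by 0.57 (adjusted p = 0.00111). None of the treated arrays of these 3 genes overlapped the BT549 controls. They were not called in the other lines, although all treated arrays of CHEK2 lay above the controls in SUM159PT (0.31) and those of TOPBP1 in MDA231 (0.23). In the mean of the lines all 3 rose, CHEK2 by 0.36, TOPBP1 by 0.24 and CHEK1 by 0.20. These 3 calls were lost without the arrays lettered C. That of CHEK1 was also lost without B and in a fit with the letters as a block. The direct test of a line difference passed for CHEK1 (adjusted p = 0.0243) and not for CHEK2 (0.383) or TOPBP1 (0.0737). ATM and ATR, the apical kinases, were not called with siDUSP4 in any line, with changes of -0.20 to 0.26.

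Selumetinib for 4 h called few repair genes. FANCF fell in MDA231 by 0.49 (SE 0.14, adjusted p = 0.0169), where 14.5% of all genes fell and 1.11% rose. Its controls read 6.12, 5.74 and 5.88 and its 4 h arrays 5.80, 5.28 and 5.18, so the groups overlapped, and array A was the highest treated one. The call did not hold without MDA231 4 h array B (-0.42), which had the lowest upper quartile, nor without 4 h array C (-0.37) or siCONTROL array A (-0.39). The fit on MDA231 alone and the fit without the 2 dimmest arrays lost it as well. Without 4 h array A, 7 repair genes were called in MDA231 in place of 1. With the quantile normalization repeated MSH6 rose there by 0.29, and the median change of the repair genes was 0.08 in place of -0.11.

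NBN fell in SUM159PT by 0.37 (SE 0.10, adjusted p = 0.0279), where 3.81% of all genes fell and 0.473% rose. NBN arrays read 8.39, 8.50 and 8.52 in controls and 8.22, 8.05 and 8.01 after 4 h, with no overlap. The call held without siCONTROL array A and not without any other single array of the 2 groups (-0.44 to -0.33), nor with the quantile normalization repeated (-0.23). In BT549 limma called no repair gene, with 0 of 31 at an unadjusted p under 0.05, where 0.161% of all genes rose and 0.49% fell. As the mean of the lines NBN fell by 0.23 (adjusted p = 0.00742) and PALB2 by 0.22 (SE 0.073, adjusted p = 0.0418), and none rose, against 12.7% and 1.12% of all genes. PALB2 was not called at 4 h in a single line. Its changes were -0.11 in MDA231, -0.35 in SUM159PT and -0.19 in BT549, and all treated arrays lay below the controls in SUM159PT and BT549. With 1 letter left out this count of 2 became 9 (A), 0 (B) or 0 (C). With the quantile normalization repeated neither NBN (-0.10) nor PALB2 (-0.09) was called, and BARD1 (0.15) and MSH6 (0.15) rose in that mean.

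After 24 h of selumetinib some repair genes were called lower in each line, and the most in MDA231. There 19 of 31 fell and none rose, where 10.3% of all genes fell and 7.36% rose. The median change in MDA231 was -0.52 for the repair genes and 0.02 for all genes, and 23 genes had every treated array below every control array, against 17.1% of all genes. In SUM159PT 5 fell and none rose, where 2.94% fell and 1.34% rose, with a median change of -0.25, and 24 genes had all arrays below the controls, against 20% of all genes. In BT549 8 fell and none rose, where 12.4% fell and 2.66% rose, with a median change of -0.26 against -0.09 for all genes, and 9 genes had all arrays below the controls, against 19.1% of all genes. With the quantile normalization repeated, FANCM was the 1 fall in BT549, FANCI rose there (0.25), and the median change was -0.08. As the mean of the lines 25 fell and none rose, where 19.2% of all genes fell and 7.24% rose. The 6 not called in that mean were RAD51C, FANCC, FANCF, RMI2, CHEK1 and PMS2. Cell type markers also moved at 24 h in MDA231, where 3 of 5 epithelial markers rose (summed log2 signal 45.7 to 45.9 in control and 47.1 to 47.8 in treated arrays) and 2 of 9 blood and vessel markers fell (48.0 to 48.7 and 45.6 to 46.8). In MDA231 1 of 3 mesenchymal markers and 1 of 3 receptor genes also rose. In BT549 2 of 3 mesenchymal markers and 1 of 9 blood and vessel markers fell, and 1 of 5 epithelial markers rose. In SUM159PT 1 of 9 blood and vessel markers fell. The part of these shifts in the repair results was not tested.

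The calls that held in every alternative run were 15 of 19 in MDA231, 0 of 5 in SUM159PT and 1 of 8 in BT549. In MDA231 17 to 20 genes were called with any 1 array left out. In SUM159PT the count of 5 fell to between 0 and 3 with any 1 of the 6 arrays left out, and was 0 without siCONTROL array B or 24 h array A. Fitted on the arrays of SUM159PT alone it was 12. In BT549 the count of 8 fell to 2 without 24 h array A, one of the dim arrays, to 1 without siCONTROL array B and to 4 without siCONTROL array C.

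Of the 11 core recombination genes 9 fell in MDA231, all but RAD51C and RAD51D, with a median change of -0.60. RAD54B fell the furthest of these, from 7.36, 7.27 and 7.02 to 6.40, 6.05 and 6.24. Its change was -0.99 (SE 0.13, adjusted p = 1.35e-06), to 50.5% of control, and it was not called in SUM159PT (-0.29) or BT549 (-0.26). RAD51AP1 fell in MDA231 from 8.16, 7.83 and 7.73 to 7.22, 7.01 and 7.20. In SUM159PT it fell from 6.86, 6.86 and 6.60 to 6.15, 6.26 and 6.25. No array overlapped in these lines, and the changes were -0.77 (SE 0.15, adjusted p = 0.00027) and -0.55 (SE 0.15, adjusted p = 0.0279). In BT549 it read 6.90 on 24 h array A and 7.66 on B and C, and the change of -0.32 was not called.

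BRCA1 fell in MDA231 and in SUM159PT. Its arrays read 6.97, 7.32 and 7.19 in MDA231 controls and 6.74, 6.37 and 6.47 at 24 h, and 7.04, 7.10 and 6.85 against 6.35, 6.58 and 6.55 in SUM159PT. The falls were 0.63 (SE 0.13, adjusted p = 0.000387) and 0.50 (SE 0.13, adjusted p = 0.0166), with no overlap, while BT549 changed by -0.11 with overlapping arrays. PALB2 fell in MDA231 from 8.31, 8.01 and 7.73 to 7.53, 7.41 and 7.40. In BT549 it fell from 9.24, 9.36 and 9.12 to 8.65, 8.89 and 8.97. Its changes were -0.57 (SE 0.13, adjusted p = 0.00112) and -0.40 (SE 0.13, adjusted p = 0.0303), and its SUM159PT change of -0.29 was not called. BARD1 (-0.57), BRIP1 (-0.78), RAD54L (-0.52), XRCC2 (-0.88) and XRCC3 (-0.60) fell in MDA231 and were not called in the other lines. The direct test of a line difference passed for BARD1, BRIP1 and XRCC2 and not for RAD54L (adjusted p = 0.0512) or XRCC3 (0.45). All treated arrays of XRCC3 lay below its controls in each line, with changes of -0.24 in SUM159PT and -0.33 in BT549.

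**Figure D4:**
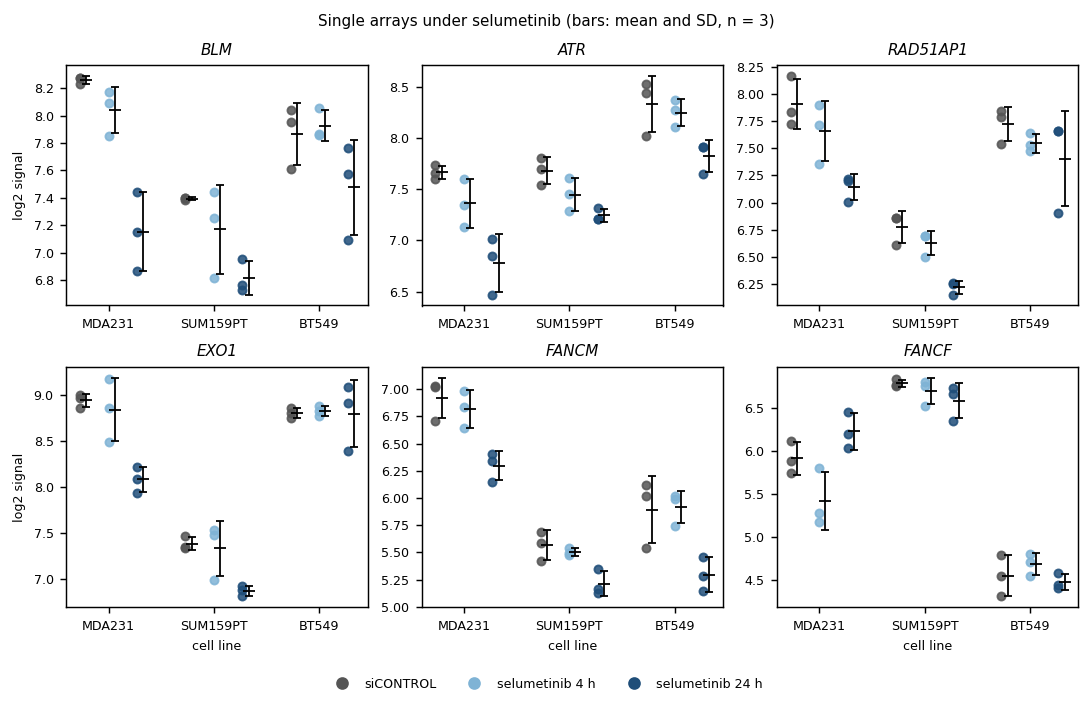
Log2 signal of single arrays (y axis) in siCONTROL (grey), selumetinib 4 h (light blue) and selumetinib 24 h (dark blue) for 6 repair genes in the 3 lines (x axis); the bar beside each group is the mean with SD, n = 3. For BLM, ATR, RAD51AP1, EXO1 and FANCM in MDA231 the 24 h points lie below all controls, while FANCF there is lowest at 4 h; BT549 24 h array A is the low dark point of RAD51AP1 at 6.90.

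In the Fanconi group FANCM and FANCI stood out by their calls in more than 1 line. FANCM read 7.02, 7.02 and 6.71 in MDA231 controls and 6.40, 6.14 and 6.34 at 24 h, and 5.54, 6.02 and 6.12 against 5.14, 5.28 and 5.46 in BT549. It fell by 0.62 (SE 0.13, adjusted p = 0.000652) and 0.60 (SE 0.13, adjusted p = 0.00434), and its BT549 call held in every alternative run, alone among the 8 falls there. At 24 h FANCM lay near the median probe signal of 5.27 in BT549. In SUM159PT all its arrays lay below the controls with a change of -0.36 that was not called. FANCI fell in MDA231 from 9.13, 9.18 and 9.05 to 8.59, 8.46 and 8.34, and in SUM159PT from 8.72, 8.73 and 8.71 to 8.26, 8.25 and 8.45. Its changes were -0.65 (SE 0.099, adjusted p = 7.61e-06) and -0.40 (SE 0.099, adjusted p = 0.0142), with 0.08 and overlapping arrays in BT549. FANCE (-0.53) and FANCG (-0.40) fell in MDA231 and FANCL (-0.46) in BT549. The FANCG call was not kept without MDA231 24 h array B, nor in the fit on MDA231 alone. FANCC and FANCF were not called, and FANCF changed by 0.31 in MDA231.

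BLM fell by more than any other repair gene in MDA231. Its arrays there read 8.27, 8.27 and 8.23 in controls and 7.44, 6.87 and 7.15 at 24 h. In SUM159PT they read 7.40, 7.40 and 7.38 against 6.77, 6.73 and 6.96. The groups did not overlap, and the changes were -1.10 (SE 0.15, adjusted p = 1.11e-06) and -0.58 (SE 0.15, adjusted p = 0.0207). In BT549 the change of -0.39 was not called (adjusted p = 0.0728). EXO1 fell in the same lines, from 8.97, 9.00 and 8.86 to 8.09, 7.94 and 8.22 in MDA231 and from 7.35, 7.47 and 7.33 to 6.81, 6.92 and 6.87 in SUM159PT. Its changes were -0.86 (SE 0.15, adjusted p = 5.46e-05) and -0.52 (SE 0.15, adjusted p = 0.0426), and in BT549 it changed by -0.01. The other members of this group were called in 1 line each: RMI2 in MDA231 (-0.42), and NBN (-0.34) and RAD50 (-0.38) in BT549. RMI1 was called in the mean of the lines (-0.23, adjusted p = 0.0479) and in no single line, and the call was lost in 6 of 10 alternatives, with values from -0.34 to -0.10. Those were repeated quantile normalization (-0.10), the replicate block, each letter left out (A -0.22, B -0.13, C -0.34) and the 2 dimmest arrays left out.

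ATR had the smallest adjusted p of the repair genes in the mean of the lines, at 3.48e-07. It fell in MDA231 from 7.66, 7.73 and 7.60 to 7.01, 6.47 and 6.85. In BT549 it fell from 8.02, 8.53 and 8.44 to 7.65, 7.91 and 7.92. Its changes were -0.88 (SE 0.13, adjusted p = 5.46e-06) and -0.51 (SE 0.13, adjusted p = 0.0113), and in SUM159PT all arrays lay below the controls with a change of -0.44 (adjusted p = 0.0522). ATM fell in BT549, from 8.71, 9.22 and 9.21 to 8.29, 8.67 and 8.58, by 0.53 (SE 0.13, adjusted p = 0.00796). It changed by -0.35 in each of the other lines, without a call. CHEK2 (-0.52) and TOPBP1 (-0.30) fell in MDA231, and CHEK1 was not called in any line. In the mismatch repair pair MSH6 fell in BT549 (-0.34, adjusted p = 0.0484) and PMS2 was not called. The MDA231 calls of CHEK2 and TOPBP1 and the BT549 calls of ATM, ATR and MSH6 each failed without at least 1 single array, BT549 24 h array A among them for those of BT549.

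Between 4 h and 24 h of selumetinib, a comparison that does not use the siCONTROL arrays, the repair genes fell further in MDA231. There 18 of 31 were lower at 24 h, where 4.48% of all genes were lower, and 2 were higher, where 20.4% were higher. The 2 were FANCF, which went from 5.80, 5.28 and 5.18 at 4 h to 6.45, 6.03 and 6.20 at 24 h, a rise of 0.81 (SE 0.14, adjusted p = 6.02e-05), and RAD50, which rose by 0.27 (adjusted p = 0.0357). The RAD50 call was lost in 8 of 14 alternatives, among them both rescalings (0.13 and 0.22), the fit on MDA231 alone, and the fits without 4 h array B or any 1 of the 24 h arrays. RAD54B (-0.94), BLM (-0.88), EXO1 (-0.76) and ATR (-0.58) were among those that fell. The count of 20 called was 13 without MDA231 24 h array B. In BT549 FANCM (-0.62), ATM (-0.41) and ATR (-0.42) were lower at 24 h, where 5.82% of all genes were lower, and the number called ran from 1 to 11 with 1 array left out, 11 without 24 h array C, 6 without 24 h array B and 1 without 24 h array A or any 1 of the 4 h arrays. In SUM159PT limma called none, with 8 of 31 at an unadjusted p under 0.05, where 0.685% of all genes were lower. XRCC2 (-0.54, adjusted p = 0.0503) and FANCI (-0.33, adjusted p = 0.0579) came closest there. Without SUM159PT 4 h array A, 3 were called in place of 0.

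Whether a change differed between lines was tested directly by an F test. The siDUSP4 effect differed for 13 of 31 repair genes, where it differed for 15.5% of all genes. PMS2 (adjusted p = 4.64e-05), RMI2 (0.000263), FANCG (0.000681), RAD50 (0.000784) and FANCF (0.00146) had the smallest adjusted p-values. FANCG changed by 0.24 in MDA231, -0.24 in SUM159PT and 0.60 in BT549. XRCC2, EXO1 and CHEK2 rose in BT549 without a line difference that passed the test. The 24 h effect differed for 9 repair genes, where it differed for 9.91% of all genes, led by FANCI (adjusted p = 0.0015) and BRIP1 (0.00357). BRIP1 changed by -0.78 in MDA231, -0.19 in SUM159PT and -0.02 in BT549. RAD50 also differed (0.0111), at 0.17 in MDA231, -0.25 in SUM159PT and -0.38 in BT549. The 4 h effect differed for none by this limma test, with 1 of 31 at an unadjusted p under 0.05, where it differed for 1.84% of all genes. Without the arrays lettered B or C these counts were 4 and 3 for siDUSP4 and 0 and 0 for 24 h, and without A they were 15, 2 and 14 for siDUSP4, 4 h and 24 h.

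The largest of the other lists held genes of DNA replication. Of 34 measured S phase and replication genes 23 rose and none fell in BT549 with siDUSP4, with a median change of 0.63, among them E2F2, a transcription factor of S phase entry (1.46), and MCM10, a replication initiation factor (1.13). Of 22 mitosis genes 10 rose there, with a median change of 0.29. Of all genes 4.97% rose and 9.22% fell in that comparison. In MDA231 with siDUSP4 9 replication genes rose and 4 fell (median 0.06), 5 mitosis genes fell and none rose (median -0.21), and CCNE1, which encodes cyclin E1, rose by 2.16. There 7.86% of all genes rose and 9.77% fell, so the 4 replication falls were near the background. After 24 h of selumetinib 27 of the 34 replication genes fell in MDA231 (median -0.54), 13 in SUM159PT (-0.37) and 4 in BT549 (-0.12). Of all genes 10.3%, 2.94% and 12.4% fell in these lines, so the BT549 count was near the background. CDC25A, a phosphatase that activates cyclin-dependent kinases, fell in MDA231 by 1.27, and CDC6, a licensing factor, fell in SUM159PT by 0.79. In BT549 the replication list moved less than the repair genes, whose median was -0.26, where all genes had a median of -0.09. The repair median there shrank when the quantile normalization was repeated, and the replication median was not recomputed that way. RB1 signal rose in BT549 with siDUSP4: it lay between 6.71 and 7.01 on the control arrays and between 7.95 and 8.15 on the treated ones. In these bulk samples fewer cells in a cycle phase and less RNA per cell cannot be told apart, and the part of the cell cycle lists in the repair results was not tested.

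In BT549 with siDUSP4 and in MDA231 after 24 h, the medians of the other repair lists were nearer 0 than those of the 31 genes (0.35 and -0.52). This did not hold in all comparisons: after 24 h the other recombination and Fanconi genes had a median of -0.27 in SUM159PT against -0.25 for the 31, and the other checkpoint genes -0.30 in BT549 against -0.26. Of 23 other recombination and Fanconi genes 9 rose and 1 fell in BT549 with siDUSP4 (median 0.27), and 11 fell and none rose in MDA231 after 24 h (median -0.34). Of all genes 4.97% rose and 9.22% fell in the former comparison, and 10.3% fell and 7.36% rose in the latter. PSMC3IP, a recombination cofactor, rose by 0.98 in BT549 and 0.89 in MDA231 with siDUSP4 and fell by 0.69 in MDA231 after 24 h. ERCC1, an excision nuclease subunit counted in the same list, fell in MDA231 with siDUSP4 by 0.71. Of 19 other checkpoint genes 5 rose and 1 fell in BT549 with siDUSP4, and 7 fell and none rose in MDA231 after 24 h (median -0.25). Of 13 end joining genes, which join breaks without a template, 2 rose and 1 fell in BT549 with siDUSP4 (median 0.13), and 1 rose and 1 fell in MDA231 after 24 h (median -0.11). Of 21 other mismatch and excision repair genes 4 rose and 1 fell (median -0.11), and 1 rose and 3 fell (median -0.09), in the same comparisons. At 4 h the lists held 0 to 5 falls in a line. In MDA231, where 14.5% of all genes fell, they held 5 of 21 mismatch and excision genes and 5 of 19 other checkpoint genes. Of the latter CDKN1A, which encodes the inhibitor p21, fell furthest (-1.48).

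**Figure D5:**
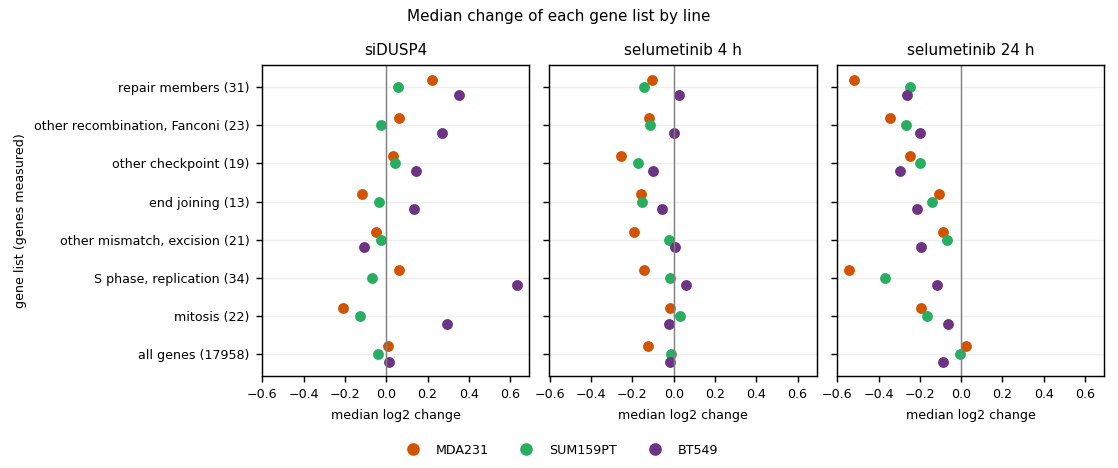
Median log2 change against siCONTROL (x axis) of the repair genes, of the other gene lists and of all genes (rows, with the number of genes measured) for each agent (panels) and line (colours). The repair genes and the S phase list are furthest right for BT549 with siDUSP4 (0.35 and 0.63) and furthest left for MDA231 after 24 h of selumetinib (-0.52 and -0.54).

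The promoters of the repair genes were searched for short words bound by factors of cell cycle genes. RefSeq promoters on GRCh38.p14, the 250 bases before a transcript start, were found for 27 of the 31 genes, as 41 promoters. RAD54B, FANCI, RMI2 and NBN had no entry. The NF-Y word CCAAT, on either strand, was in 48.8% of the 41 promoters and in 32% of all 35116 promoters. It was found for 15 of 27 genes, 7 of the 14 searched that rose in the mean of the lines with siDUSP4 and 12 of the 22 searched that fell in the mean after 24 h. Among the genes not called in those means it was found for 8 of 12 and 3 of 5, so the word was not commoner in the genes that were called. The CHR word TTTGAA was in 7.32% of member promoters and 13.3% of all. Exact E2F words (TTTCCCGC, TTTGGCGC, TTTCGCGC or TTTGCCGC, either strand) were in 9.76% and 2.79%. They belonged to 3 genes, FANCC, PMS2 and RMI1, none of which was among the 14 that rose. RMI1 was among the 22 that fell in the mean after 24 h, and FANCC and PMS2 were not called there. A match is a description of these letters only, and member promoters of 1 gene overlap.

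Of the 11 searched genes that rose in BT549 with siDUSP4 and fell in MDA231 after 24 h, BLM, BRIP1, CHEK2, FANCM and RAD54L are shown as examples of promoters with several copies. RAD51AP1 had 1 copy and BARD1, XRCC2, FANCG, EXO1 and TOPBP1 had none, while genes without both calls had up to 5 (XRCC3). Each of these 5 stretches holds 2 or 3 copies of CCAAT, in capitals (ATTGG is the same word on the other strand). PMS2, which moved in opposite directions in MDA231 and BT549 with siDUSP4, is shown with its E2F word in capitals. The stretches lie before the transcript start and read 5′ to 3′ on the gene's strand. BLM is at chr15:90717190-90717344, plus strand, BRIP1 at chr17:61863537-61863660, minus strand, CHEK2 at chr22:28741841-28742034, minus strand, FANCM at chr14:45135708-45135875, plus strand, RAD54L at chr1:46247608-46247705, plus strand, and PMS2 at chr7:6009112-6009179, minus strand, all on GRCh38.p14.
BLM: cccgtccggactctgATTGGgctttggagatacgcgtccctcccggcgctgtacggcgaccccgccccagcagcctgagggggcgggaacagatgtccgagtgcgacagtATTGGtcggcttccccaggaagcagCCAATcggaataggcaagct
BRIP1: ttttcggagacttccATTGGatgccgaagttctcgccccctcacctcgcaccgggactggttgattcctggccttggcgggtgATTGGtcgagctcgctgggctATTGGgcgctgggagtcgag
CHEK2: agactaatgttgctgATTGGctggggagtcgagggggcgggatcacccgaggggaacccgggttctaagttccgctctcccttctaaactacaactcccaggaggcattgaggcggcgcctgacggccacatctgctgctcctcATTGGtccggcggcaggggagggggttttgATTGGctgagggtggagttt
FANCM: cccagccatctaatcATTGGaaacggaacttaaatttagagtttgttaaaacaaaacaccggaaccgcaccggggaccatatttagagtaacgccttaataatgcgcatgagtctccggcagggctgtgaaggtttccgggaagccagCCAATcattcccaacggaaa
RAD54L: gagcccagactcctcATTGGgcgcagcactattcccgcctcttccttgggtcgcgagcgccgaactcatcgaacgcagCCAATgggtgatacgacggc
PMS2: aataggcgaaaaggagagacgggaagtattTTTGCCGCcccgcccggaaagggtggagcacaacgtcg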

How the data were processed

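Total RNA of 36 samples was measured on Affymetrix arrays, in 12 groups of 3. The log2 values deposited by the authors come from RMA; the submitters' processing notes name Affymetrix Expression Console 1.1 as the software, and its options are not given in the sources. The array number limits the precision.

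Of 33297 probes, 19181 had 1 gene symbol in the platform annotation, 2055 had several and 12061 had none. The probe of highest mean stood for each of 17958 genes, of which 895 had several probes. The deposited values were not normalized again. limma 3.58.1 (R 4.3.3) fitted 12 group means to the 36 arrays by lmFit and eBayes, with 24 residual degrees of freedom, with Benjamini-Hochberg adjustment over all genes and a threshold of 0.05. Line differences were F tests in the same fit. The model was tested on simulated data.

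All measured genes of the list were named. Those called in the mean of the lines or in 2 or more lines were given by array, ranked by adjusted p, up to 10 per treatment; RMI2, PMS2 and FANCF were added after their values were seen. Of other pathway genes, up to 6 called per comparison could be named. The genes and lists were chosen with earlier results of these data known. Lists were other recombination and Fanconi genes, other checkpoint genes, end joining, other mismatch and excision repair, S phase and replication, mitosis, and epithelial, mesenchymal, receptor and other cell markers.

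Alternatives were repeated quantile normalization, aligned medians, no dim genes, the mean of a gene's probes, a trended robust prior, a replicate block, single-line fits and leaving out arrays.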

Additional observations from a re-analysis of the deposited data

Results flagged for a closer look

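The siDUSP4 effect differed between the 3 lines by limma's F test for 13 repair genes. The adjusted p-values were 4.6e-05 for PMS2, 0.00026 for RMI2, 0.00068 for FANCG, 0.00078 for RAD50 and 0.0015 for FANCF. They were 0.0039 for FANCI, 0.0083 for BARD1, 0.023 for FANCE, 0.024 for RAD51AP1, FANCL and CHEK1, 0.043 for BRIP1 and 0.048 for RAD54L. BARD1, BRIP1, RAD51AP1, RAD54L, FANCG, FANCI and CHEK1 rose in BT549 alone by the single-line tests, and FANCE, FANCF and FANCL were called in MDA231 alone.

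The effect of selumetinib for 24 h differed between the lines for 9 repair genes. The adjusted p-values were 0.0015 for FANCI, 0.0036 for BRIP1, 0.011 for RAD50, 0.012 for RAD54B, 0.015 for RMI2, 0.019 for EXO1, 0.025 for FANCE, 0.03 for BARD1 and 0.04 for XRCC2. All but RAD50 fell in MDA231, and RAD50 fell in BT549. Without the arrays lettered B, or those lettered C, 0 of these 9 were called.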

How the results depend on the processing

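Over the alternatives run, 5566 of 5890 single-gene values kept their side of the threshold, 199 lost a call and 125 gained one. Of the values called in the main or the alternative run, 0 reversed direction. The direction of values called in neither run was not counted. Of 229 counts, 164 stayed within 1.5 times the main count. The cause of the other 65 was not tested. Calls kept in every alternative were 7 of 9 for siDUSP4 in MDA231, 12 of 16 in BT549 and 4 of 17 in the mean of the lines. At 4 h they were 0 of 1 in MDA231, 0 of 1 in SUM159PT and 0 of 2 in the mean. In the mean at 24 h they were 15 of 25. For 24 h against 4 h they were 12 of 20 in MDA231 and 1 of 3 in BT549.

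Repeated quantile normalization gave 16 calls for siDUSP4 in MDA231 and 1 in SUM159PT, 2 (MDA231) and 0 (SUM159PT) at 4 h, 2 in BT549 at 24 h, 6 (SUM159PT) and 1 (BT549) for 24 h against 4 h, and 22 (siDUSP4) and 16 (24 h) line differences. Aligned medians gave 2 in SUM159PT and 4 in the mean at 4 h, and 1 in SUM159PT for 24 h against 4 h. Without dim genes there were 4 in the mean at 4 h, and 2 (SUM159PT) and 5 (BT549) for 24 h against 4 h. For 24 h against 4 h in SUM159PT the mean of probes gave 1 and the trended prior 2. Single-line fits gave 0 in MDA231 and 3 in SUM159PT at 4 h, 1 for siDUSP4 in SUM159PT, 12 (SUM159PT) and 5 (BT549) at 24 h, and 5 (SUM159PT) and 1 (BT549) for 24 h against 4 h. Leaving out the 2 arrays of lowest upper quartile, chosen after seeing the data, gave 0 (MDA231) and 1 (mean) at 4 h, 2 in BT549 at 24 h and 1 in BT549 for 24 h against 4 h.

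With 1 array or letter left out, counts ran for siDUSP4 from 7 to 9 (MDA231), 0 to 0 (SUM159PT), 13 to 15 (BT549) and 4 to 15 (mean). They ran at 4 h from 0 to 7, 0 to 1, 0 to 0 and 0 to 9, and at 24 h from 17 to 20, 0 to 3, 1 to 12 and 17 to 24. For 24 h against 4 h they ran from 13 to 20, 0 to 3 and 1 to 11. Line differences ran from 3 to 15 (siDUSP4), 0 to 2 (4 h), 0 to 14 (24 h) and 27 to 30 (siCONTROL).

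The letters A to C were not treated as pairs: of 27 correlations of same-letter deviations, 6 were over 0.1 and 5 under -0.1, from -0.41 to 0.337. With the replicate block 1 gene was called in BT549 for 24 h against 4 h in place of 3, and the other counts stayed within 1.5 times.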
